A study of Rattus norvegicus with 6 samples.

Results

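The electron transfer flavoprotein (ETF) and its membrane-bound dehydrogenase were followed in whole adrenal gland of 2 inbred rat strains, through the 3 genes Etfdh, Etfa and Etfb, of which 2 were among the 4736 genes that a probe set of the array names singly. There were 5 such probe sets among the 8740 that are not array controls, 3 for Etfdh, 2 for Etfa and 0 for Etfb. Samples were 3 adrenal gland RNAs of the Spontaneously Hypertensive Rat (SHR) and 3 of its normotensive comparison strain, the Wistar-Kyoto rat (WKY), each on 1 single-colour Affymetrix RG-U34A array. No treatment, age, sex or allele was given for either strain, and replicates are not stated to be different animals. The p-values below therefore cover only sample-to-sample spread, part or all of which may be technical. The set was chosen by the SHR and WKY intensities themselves, because 1 Etfdh probe set differed widely between the strains and 2 others did not. The strain differences of the member probe sets are therefore a description, and no outcome of the fit for them is used as support.

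ETF is a soluble heterodimer of the mitochondrial matrix, with an alpha subunit from Etfa and a beta subunit from Etfb. It takes electrons from a group of flavin-dependent dehydrogenases that act on acyl-CoA esters, amino acid breakdown products and choline metabolites. ETF dehydrogenase, the product of Etfdh, sits on the inner mitochondrial membrane and passes those electrons to ubiquinone, from which they reach complex III of the respiratory chain. Inherited loss of any of the 3 proteins in humans causes multiple acyl-CoA dehydrogenase deficiency. The adrenal cortex is rich in mitochondria, where several steps of steroid hormone synthesis take place.

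The 3 Etfdh probe sets are annotated to 1 gene, which has 1 start in the RefSeq promoter table used here, and for that reason the 250 bases before that start are shown, with those of Etfa beside them. On the GRCr8 assembly the Etfdh stretch is chr2:167060759-167061008 on the minus strand and the Etfa stretch is chr8:64787966-64788215 on the minus strand. Capitals mark matches, on either strand, to the GC box GGGCGG or the CCAAT box CCAAT.
Etfdh: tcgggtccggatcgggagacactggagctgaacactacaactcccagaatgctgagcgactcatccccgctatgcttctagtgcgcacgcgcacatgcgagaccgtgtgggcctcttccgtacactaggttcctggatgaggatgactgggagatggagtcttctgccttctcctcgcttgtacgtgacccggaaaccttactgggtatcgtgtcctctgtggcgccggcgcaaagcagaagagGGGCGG
Etfa: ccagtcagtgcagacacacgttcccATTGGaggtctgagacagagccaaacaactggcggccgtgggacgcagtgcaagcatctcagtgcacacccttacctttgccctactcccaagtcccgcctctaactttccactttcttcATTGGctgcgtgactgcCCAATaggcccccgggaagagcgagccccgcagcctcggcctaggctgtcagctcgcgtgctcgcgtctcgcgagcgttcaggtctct
Of the 33469 stretches of this length in the table, 30.5% held at least 1 GC box and 34% at least 1 CCAAT box. The Etfdh stretch held 1 GC box and 0 CCAAT boxes. The Etfa stretch held 3 CCAAT boxes and 0 GC boxes. Neither held the ETS core CCGGAAG, the ERR element TCAAGGTCA, the cyclic AMP element TGACGTCA or the E-box CACGTG. These stretches were not measured by the arrays. They are reference sequence and not that of SHR or WKY.

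The deposited values were 1 intensity per probe set and array, already scaled to a trimmed mean of 2504 on each array. The ratio of 3' to 5' signal of the hexokinase control was 4.21 in SHR replicate 2 and 1.96 to 2.54 on the other arrays. For the GAPDH control that ratio was 0.95 in SHR replicate 2, within the 0.90 to 1.14 of the other arrays. Markers of the labelled tissue were read on every array: the 5 cortex markers on the array, Star and Cyp11a1 among them, summed to 172960 to 270634 in SHR and 204601 to 303246 in WKY. Hybridization times recorded by the instrument fell into 2 runs. SHR replicates 2 and 3 made up the second, and all others belonged to the first. In a bulk sample, fewer cells of a type and less RNA per cell cannot be told apart.

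The Etfdh probe set rc_AI237007_at read 36.7, 38.6 and 62 in SHR replicates 1 to 3, against 2526.4, 3285.8 and 3058.3 in WKY replicates 1 to 3. All 3 SHR values were near the bottom of the scale and the groups were far apart, with every WKY array above every SHR array. The mean was 45.8 ± 14.1 in SHR and 2957 ± 390 in WKY (SD, n = 3 each), a ratio of 0.0155. The log2(intensity + 181.5) scale has as its added constant the 20th percentile of all positive values. On that scale the SHR minus WKY change was -3.78 ± 0.23 (SE). The 3 SHR values all lay under that constant and the 3 WKY values lay far above it. The size of the change therefore depends on the constant: it was -2.25 with 4 times the constant and -6.01 with a constant of 1 and no filter on dim values. The table used carries no detection call, so whether the SHR values stand above background was not determined.

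The other 2 Etfdh probe sets, both built from a single other expressed sequence tag, did not share that pattern. With rc_AI176422_at the values were 5156.7, 6788.8 and 6610.9 in SHR, against 3521.9, 3872.9 and 4500.9 in WKY. Here the order was the opposite one, with all SHR arrays above all WKY arrays, and the log2 change was 0.62 ± 0.17 (SE). The partner probe set, rc_AI176422_g_at, read 7041.8, 7417.7 and 7430.5 in SHR and 5949.5, 6889.7 and 7062.9 in WKY. Its groups overlapped, since WKY replicate 3 lay just above SHR replicate 1, and its log2 change was 0.14 ± 0.13. So of the 3 probe sets annotated to the dehydrogenase gene, 1 was lower in SHR on all arrays, 1 was higher in SHR on all arrays and 1 overlapped.

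**Figure D1:**
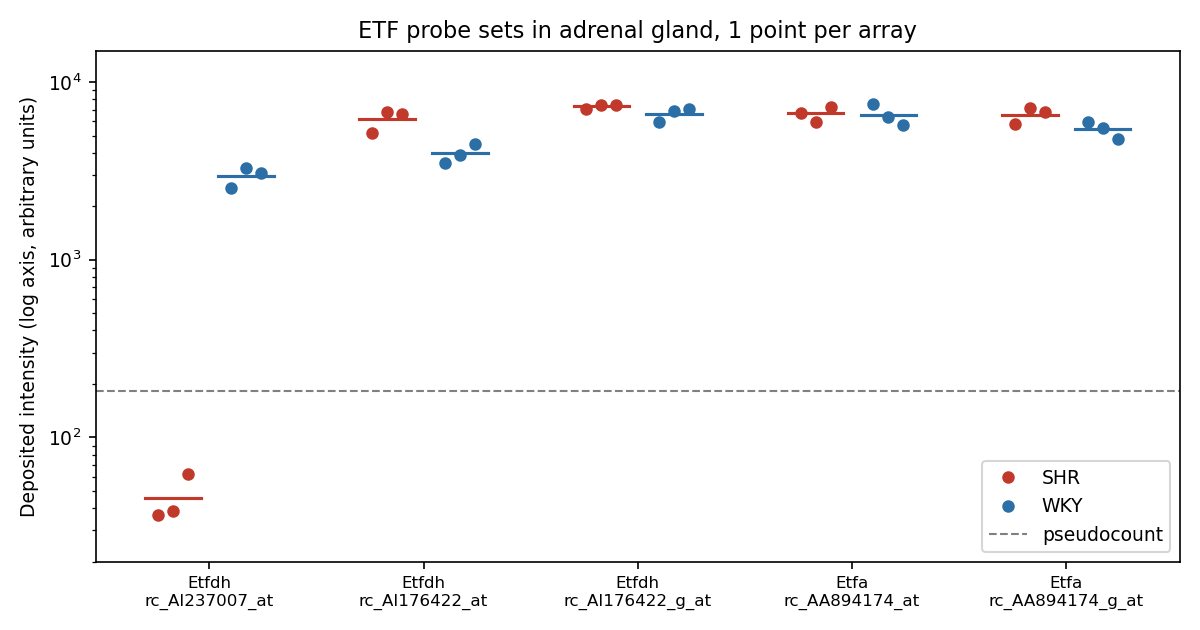
Deposited intensity (log axis, arbitrary units) of each Etfdh and Etfa probe set, 1 point per array, with a bar at the mean of the 3 arrays of a strain, SHR in red left of WKY in blue. The SHR points of rc_AI237007_at lie at 36.7 to 62, under the dashed line at 181.5 and far under the WKY points at 2526.4 to 3285.8, while the other 4 probe sets have all points of both strains at 3521.9 or above.

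Etfa, which encodes the alpha subunit, gave values that overlapped between the strains in both of its probe sets. Probe set rc_AA894174_at read 6732.3, 5987.5 and 7242.7 in SHR, against 7537.1, 6349.1 and 5761.7 in WKY, with the highest and the lowest value both in WKY. Its mean was 6654 ± 631 in SHR and 6549 ± 904 in WKY (SD, n = 3 each), and the log2 change was 0.03 ± 0.15 (SE). The second Etfa probe set, rc_AA894174_g_at, read 5787.8, 7118.9 and 6774 in SHR and 5948.3, 5505.9 and 4789.2 in WKY. SHR replicates 2 and 3 lay above all WKY arrays and SHR replicate 1 lay among them, and the log2 change was 0.27 ± 0.15. Etfb, the beta subunit gene, is not named by any probe set of this array, so the heterodimer was followed through 1 of its subunits.

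All 5 member probe sets passed the filter on dim values, which kept the 5244 probe sets with a mean over 9.47 across all 6 arrays on the log2 scale. For rc_AI237007_at that mean was 9.72, made of 7.83 in SHR and 11.61 in WKY, so it passed through WKY alone and lay just inside the limit. The other 4 lay far inside it in both strains. In the limma fit over all tested probe sets, 1 of the 5 members, rc_AI237007_at, stood past an adjusted p of 0.05, where 1.95% of all tested probe sets did. The strains did not overlap in 2 of the 5, against 20.7% of all tested probe sets. Nothing is read from these counts, because the members were chosen with this contrast known.

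Within a strain the members were steady. The coefficient of variation over 3 arrays ran from 3.03% for rc_AI176422_g_at in SHR to 14.5% for rc_AI176422_at in SHR, apart from rc_AI237007_at in SHR at 30.8%, where the highest of the 3 values was 62. SHR replicate 1 was the only SHR array of the first hybridization run. Run and spread between SHR samples therefore cannot be told apart. Within the first run, SHR replicate 1 against the 3 WKY arrays gave log2 changes of -3.84 for rc_AI237007_at, 0.37 for rc_AI176422_at and 0.10 for rc_AA894174_g_at. The first of these was close to its value over all arrays, and the other 2 were smaller than theirs. The second run held SHR arrays alone and gave no value. With any 1 array left out, and no filter, the change of rc_AI237007_at stayed between -3.88 and -3.71. Without SHR replicate 2, the array with the high hexokinase ratio, it was -3.76.

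Because levels of different probe sets cannot be set against each other, the 3 Etfdh probe sets were compared through their log ratio within each array, whose difference between strains is the gap between their changes. For rc_AI237007_at minus rc_AI176422_at, the log2 ratio was -4.61, -4.99 and -4.80 on the SHR arrays, against -0.45, -0.23 and -0.53 on the WKY arrays. The gap was -4.40. For rc_AI237007_at minus rc_AI176422_g_at, the log2 ratio was -5.05, -5.11 and -4.97 on the SHR arrays, against -1.18, -1.03 and -1.16 on the WKY arrays, a gap of -3.92. In both pairs every SHR ratio lay under every WKY ratio. The size of these gaps depends on the added constant, which also draws the SHR ratios together, since the SHR values of rc_AI237007_at lie under it: with 4 times the constant the gaps were -2.80 and -2.38. The pair from a single sequence tag, rc_AI176422_at minus rc_AI176422_g_at, had a gap of 0.48, and the 2 Etfa probe sets, also from a single tag, one of -0.24.

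**Figure D2:**
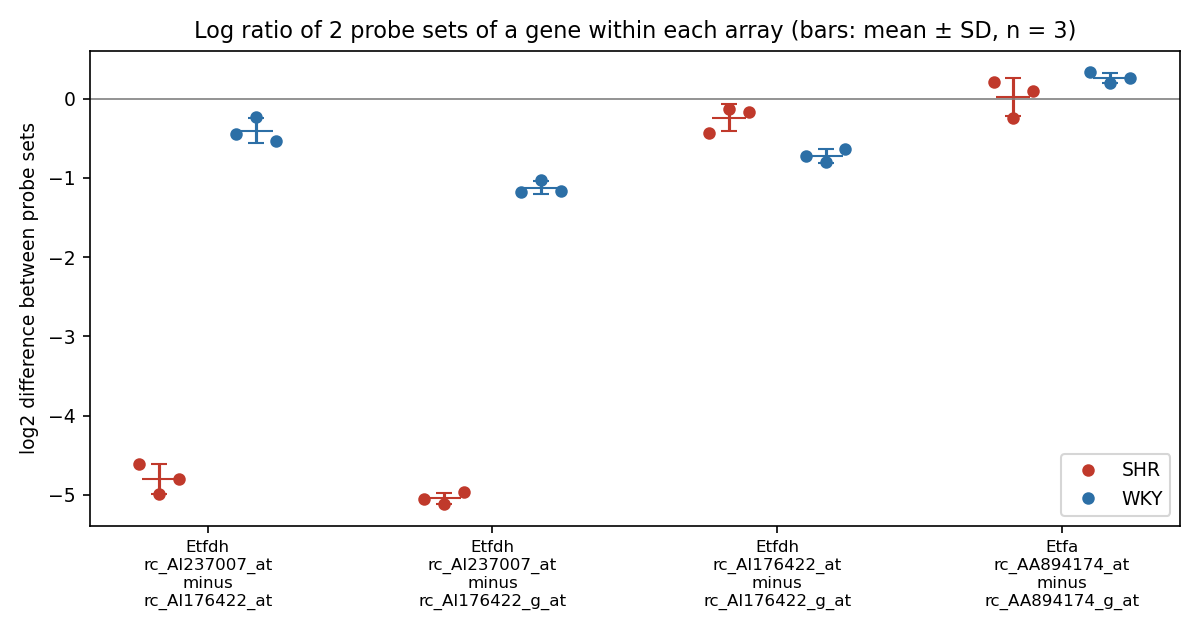
Log2 difference between 2 probe sets of a gene within each array (points, 1 per array), with mean ± SD over the 3 arrays of a strain, SHR in red left of WKY in blue. In the 2 left pairs, which hold rc_AI237007_at, SHR lies at -4.61 to -5.11 and WKY at -0.23 to -1.18, while in the 2 right pairs the strain means differ by 0.48 and -0.24.

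The same gap was taken over the whole array to show how far probe sets of a gene usually part. Among 434 pairs of tested probe sets that share a gene and a source accession, the median absolute gap was 0.24 on the log2 scale and the 95th percentile 0.82. Among 892 pairs that share a gene and come from different accessions, the median was 0.25 and the 95th percentile 0.92, and 4 pairs parted by more than 2. Of those 4, 2 were the Etfdh pairs above. Over 492 genes with tested probe sets from several accessions, the range of log2 changes within a gene had a median of 0.34. Etfdh had the widest, at 4.40, followed by Alox15 at 2.09 and Mmp2 at 2.05. Etfdh was chosen for this split, and its range, like those of Alox15 and Mmp2, rests on values near or under the added constant, so this order is a description on that scale.

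**Figure D3:**
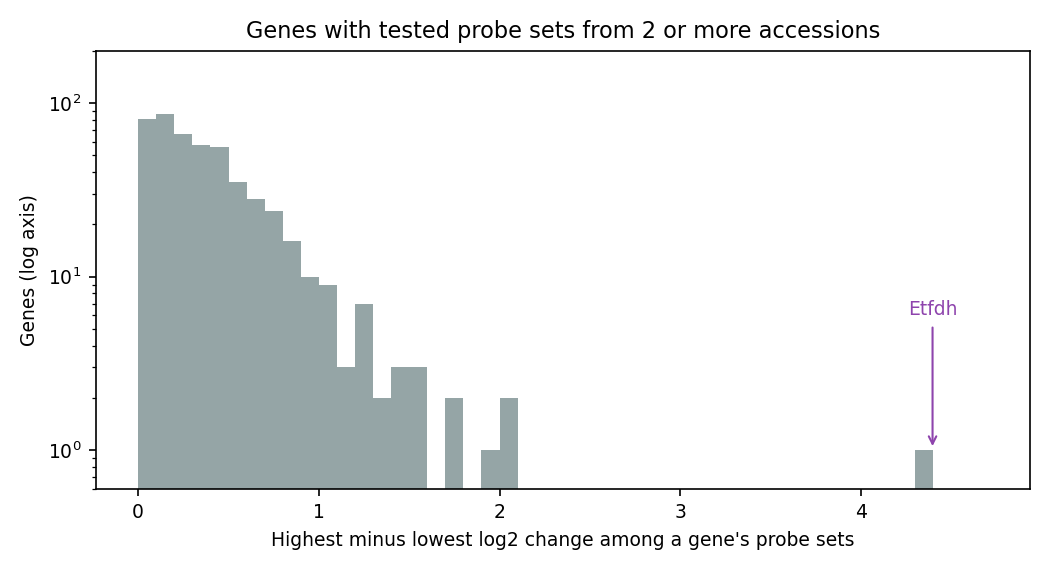
Number of genes (log axis) by the range of log2 changes, SHR minus WKY, among the tested probe sets of a gene, for the 492 genes with probe sets from several accessions. Etfdh, at 4.40, lies to the right of all others, the next being Alox15 at 2.09.

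The dehydrogenases that hand electrons to ETF were measured beside it, from a list of 17 genes that also held the ETF regulators Etfrf1 and Etfbkmt. Of the 8 on the array, 6 were tested by their brightest probe set, and 0 rose and 0 fell in limma's fit at an adjusted p under 0.05, with 1 at an unadjusted p under 0.05. Among all 3144 genes tested in that way, 1.65% passed and 13% had an unadjusted p under 0.05. The median log2 change of the list was -0.02, against -0.01 over all genes tested. Acads, the short-chain acyl-CoA dehydrogenase, read 7942.1, 7988 and 8482.5 in SHR, against 6645.3, 7189.9 and 5396.1 in WKY, with all SHR arrays higher. The log2 change was 0.34, with an SE of 0.15 and a limma adjusted p of 0.344. Strains did not overlap in 20.7% of all tested probe sets, in either direction.

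The other acyl-CoA dehydrogenases had overlapping strains. Acadm, for medium chains, was at -0.17 ± 0.13 (log2 change ± SE; limma adjusted p = 0.617) and Acadl, for long chains, at 0.08 ± 0.17 (0.870). Acadvl, for very long chains, was at -0.40 ± 0.21 (0.438). Ivd, the isovaleryl-CoA dehydrogenase of leucine breakdown, was at -0.03 ± 0.16 (0.957) by its brightest probe set, and its other probe sets were at 0.39 and -0.51. Sardh, the sarcosine dehydrogenase, was at -0.005 ± 0.19 (0.993) by its brightest probe set and at -0.20 and -0.56 by the others. In the Sardh probe set at -0.56 the strains did not overlap, with SHR lower (limma adjusted p = 0.187). The same held for 20.7% of all tested probe sets, in either direction. Acadsb, for branched short chains, averaged 153 ± 3.68 in SHR and 224 ± 124 in WKY (SD, n = 3 each) and was too dim to be tested, as was Dmgdh, the dimethylglycine dehydrogenase.

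**Figure D4:**
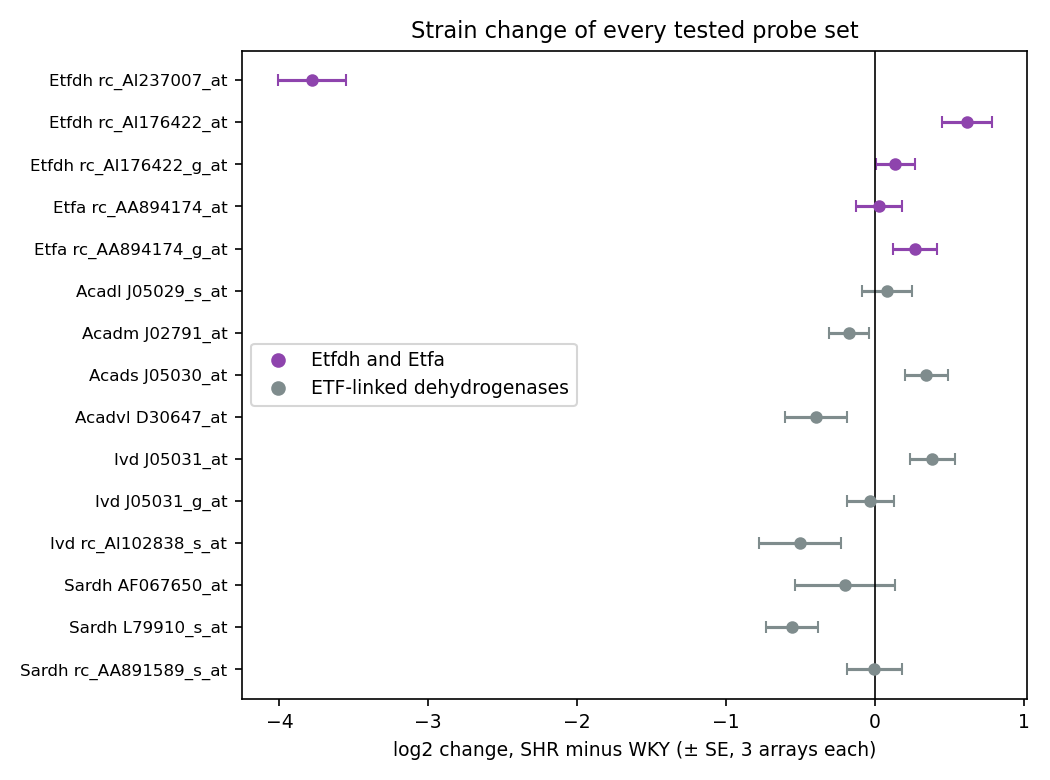
Log2 change, SHR minus WKY (points, ± SE, 3 arrays per strain), of every tested probe set of Etfdh and Etfa (purple) and of the ETF-linked dehydrogenases (grey). The Etfdh probe set rc_AI237007_at lies at -3.78, and all others lie between -0.56 and 0.62.

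Downstream of ETF dehydrogenase, a list of 33 genes covered ubiquinone synthesis, the other enzymes that reduce ubiquinone, complex III and cytochrome c. Of its 11 genes on the array 8 were tested. In limma's fit 0 rose and 0 fell, beside 1.65% called among all genes tested. An unadjusted p under 0.05 was reached by 0 of the 8, beside 13% of all genes tested. The median log2 change of the list was -0.12. The genes of smallest p were Cyc1, which encodes cytochrome c1 of complex III, at -0.26 ± 0.12 (log2 change ± SE; limma adjusted p = 0.395), and Coq3, a methyltransferase of ubiquinone synthesis, at -0.34 ± 0.19 (0.472). Next were the complex III subunit genes Uqcrc2 at -0.18 ± 0.12 (0.551) and Uqcr11 at -0.25 ± 0.18 (0.583). The strains overlapped in Coq3 and Uqcr11. They did not in Cyc1 and Uqcrc2, with SHR lower, nor in 20.7% of all tested probe sets, in either direction. In the flavin supply list, 1 of 5 genes was tested, the riboflavin transporter gene Slc52a3, at -0.04 ± 0.23 (0.963).

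The remaining genes of mitochondrial fatty acid oxidation and its regulation formed a list of 32, of which 26 were on the array and 23 were tested. In limma's fit 0 rose, 1 fell and 22 did not pass, beside 1.65% called among all genes tested. An unadjusted p under 0.05 was reached by 7 of the 23, beside 13% of all genes tested, and 16 of the 23 changes were positive (median log2 change 0.17, against -0.01 over all genes tested). The one that fell was Ucp2, which encodes an uncoupling protein of the inner mitochondrial membrane. It read 18411.9, 15630.6 and 15843.4 in SHR, against 35182.9, 36103.7 and 39163.5 in WKY, so that every SHR array lay well under every WKY array. The log2 change was -1.14, with an SE of 0.11 and a limma adjusted p of 0.00269, and a second Ucp2 probe set was at -1.36 ± 0.16 (0.00548). Blocking on hybridization run, Ucp2 stood at -0.99 and no longer passed (limma adjusted p = 0.0695), in a fit that sets SHR replicate 1 against the WKY arrays.

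Next by p was Cd36, the fatty acid transporter, at -1.44 ± 0.35 (log2 change ± SE; limma adjusted p = 0.0969). Decr1, the dienoyl-CoA reductase needed for unsaturated fatty acids, was at 0.69 ± 0.18 (0.127), and Cpt2, the carnitine palmitoyltransferase of the inner membrane, at 0.52 ± 0.17 (0.221). In these 3 genes the strains did not overlap, with SHR lower for Cd36 and higher for Decr1 and Cpt2. The same held for some others of this list and for 20.7% of all tested probe sets, in either direction. Fat cells are rich in genes of this kind. Of the 8 adipocyte markers on the array 7 were tested, and 0 rose and 1 fell, beside 1.65% called among all genes tested. The 8 had a summed intensity of 43619 to 53245 in SHR and 45583 to 85783 in WKY, and none was at 0. Of the 5 medulla markers, all tested, 0 rose and 1 fell, with a sum of 33087 to 43496 in SHR, under the 45598 to 54247 in WKY. The 6 liver markers, of a tissue rich in ETF, gave 0 calls among the 5 tested and a sum of 5696 to 6665 in SHR, under the 7229 to 8723 in WKY. Skeletal muscle and kidney markers gave 0 calls among 4 and 3 tested, and their sums overlapped. The part of any of these tissues in the changes of the genes above was not tested.

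The genes beside the members in the genome were taken as the 10 protein-coding genes on each side of Etfdh, Etfa and Etfb in the GRCr8 gene table. Etfdh lies on chromosome 2, Etfa on chromosome 8 and Etfb on chromosome 1. Of the 60 neighbours 15 were on the array and 8 were tested, 6 of them around Etfa, 1 near Etfdh and 1 near Etfb. In limma's fit 0 of the 8 rose and 0 fell, beside 1.65% called among all genes tested. An unadjusted p under 0.05 was reached by 0, beside 13% of all genes tested. The median log2 change of the 8 was 0.09. Next to Etfdh, Ppid, which encodes cyclophilin 40, read 1438.4, 1594.4 and 2057.6 in SHR, against 1204.5, 1930.8 and 1506.2 in WKY. The strains overlapped, with a log2 change of 0.13, an SE of 0.22 and a limma adjusted p of 0.849.

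Around Etfa, Ireb2, an RNA-binding regulator of iron metabolism, was at 0.41 ± 0.24 (log2 change ± SE; limma adjusted p = 0.493) and the nicotinic receptor subunit gene Chrnb4 at 0.18 ± 0.20 (0.744). The proteasome subunit gene Psma4 was at -0.16, Rcn2, a calcium-binding protein gene, at 0.12, the tetraspanin gene Tspan3 at -0.07 and the F-box gene Fbxo22 at 0.07. These values are by brightest probe set. A dimmer tested probe set was at 0.29 ± 0.43 for Chrnb4 and at 0.35 ± 0.31 for Fbxo22, both with overlapping strains. Near Etfb only the lens membrane protein gene Lim2 was tested, at 0.06. The 7 other neighbours on the array, all untested for low values, included Gria2 near Etfdh, a glutamate receptor subunit gene. One Gria2 probe set read 394.8, 288.4 and 560.7 in SHR, against 51.9, 107.3 and 114.6 in WKY, without overlap, and the other overlapped between strains. The other untested ones were Tdo2 near Etfdh, and Chrna3, Chrna5, Ube2q2, Isl2 and Pstpip1 near Etfa. Pstpip1 read 197.6, 180.8 and 146.6 in SHR, under all of the 567.4, 206.7 and 422.1 in WKY, and the strains overlapped in the remaining 5.
The profile of rc_AI237007_at over the 6 arrays was set against those of all tested probe sets with 1 gene symbol, by the root mean square difference between log2 values centred on each probe set's own mean. The nearest was Medag, linked to fat cell formation, at a difference of 0.88 over 6 arrays. It read 326.2, 132.5 and 311.9 in SHR and 2510.2, 1611.9 and 1431.9 in WKY. Next came Ddx42, an RNA helicase gene, at 0.92, the class II antigen gene RT1-Bb at 0.92, the GTPase-activating protein gene Arhgap1 at 0.95 and the invariant chain gene Cd74 at 0.98. All 5 were lower in SHR, a direction that their choice by likeness to rc_AI237007_at fixes. Their log2 changes were -2.21 to -1.90, and so none matched the -3.78 of the Etfdh probe set.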

How the data were processed

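RNA from 6 adrenal gland samples, grouped by the strain in their titles, was read on Affymetrix RG-U34A arrays. For each array the authors deposited linear intensity values, 1 for a probe set, and the expression algorithm is not given in the sources used here. Settings files deposited by the authors (other values) gave run times, module and chip lot. Gene names came from the platform's annotation and from the GRCr8 RefSeq gene table. Without the 59 controls there were 8740 probe sets, 7006 with 1 symbol. Values were taken as log2(intensity + 181.5), and probe sets with a mean above the 40th percentile were tested with limma 3.58.1 in R 4.3.3 (lmFit, eBayes with trend), all 6 arrays, no covariate, two-sided, with Benjamini-Hochberg adjustment over the 5244 tested. A gene was represented by its brightest tested probe set. Its precision is limited by 3 arrays per strain. In 10 simulated tables of 5244 probe sets for SHR minus WKY, the fit recovered 8% of added log2 differences of 0.5. It recovered 50% of those of 1, 84% of those of 2 and 97.8% of those of 4. Of all its calls there, 5.85% were false. By brightest probe set, the tested genes of the ETF-linked, ubiquinone, flavin and neighbour lists had log2 changes of -0.40 to 0.41. The counts of 0 in these lists therefore say little about changes of that size. The members and lists were chosen with earlier results of these data known. Genes named were the members, the measured ETF-linked dehydrogenases and neighbours, the called genes and the 4 of smallest p of each other list, and the 5 nearest profiles. Genes outside this, Alox15 and Mmp2, were chosen after their values were seen. Same-numbered replicates of the strains did not deviate together (correlations of 0.0009 to 0.071 across probe sets), so the numbers were not taken as pairs. Normalization, pseudocount, filter, eBayes setting, block, samples and probe set choice were varied as alternatives. Probe and protein sequences were not used here.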

Additional observations from a re-analysis of the deposited data

How the results depend on the processing

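The log2 change of the Etfdh probe set rc_AI237007_at kept its sign in every fit that gave a value, a direction that the choice of this probe set fixes, and was -3.84 in the first run alone, where SHR has 1 array. It had no value under a pseudocount of 1 with the filter, a filter at the 60th percentile, or with the filter and any 1 WKY array left out, because its mean then fell under the limit. Fits without a filter, added after seeing the data, supplied those values. The change was -2.25 with 4 times the pseudocount and -6.01 with a pseudocount of 1 and no filter, by construction, as its SHR values lie under the constant. With 4 times the pseudocount its gaps to rc_AI176422_at and rc_AI176422_g_at were -2.80 and -2.38. With the run as a block, and equally within the first run, rc_AI176422_at stood at 0.37 and rc_AA894174_g_at at 0.10. With the module as a block rc_AI176422_at stood at 0.83. The other Etfa probe set, rc_AA894174_at, kept its sign in 15 of 18 fits, its values lying near 0. The 102 calls over all probe sets became 60 without the trend, 20 with the run as a block, 46 with the module as a block, 1 within the first run and 36 to 59 with 1 array left out. With the replicate block there were 53 calls. The count for fatty acid oxidation was 0 with the run as a block or within the first run, and 2 when all probe sets of a gene were counted, both of Ucp2. The causes were not tested. Counts for the ETF-linked, ubiquinone, flavin and neighbour lists were 0 under all alternatives tried. Low signal limits what can be said of rc_AI237007_at in SHR.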

Other observations

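Other genes also had probe sets from different accessions whose strain changes parted, and these were chosen after their values were seen. In Mmp2, a matrix metalloproteinase gene, U65656_at read 197.6, 177 and 226.6 in SHR, against 938.8, 1146.7 and 1409.3 in WKY and changed by -1.81 ± 0.26 (log2 change ± SE). Its mean over all arrays, 9.48 on the log2 scale, was just over the limit for testing of 9.47, through WKY at 10.38 with SHR at 8.58. With 4 times the constant and no filter, tried after seeing the data, its change was -1.02. Its other probe set, X71466_at, was at 0.24 ± 0.20, with overlapping strains. In Alox15, a lipoxygenase gene, L06040_s_at read 155.1, 179.1 and 159.6 in SHR and 2094.6, 2975.7 and 503.5 in WKY, at -2.30 ± 0.53, while S69383_at was at -0.21 ± 0.61. The SHR values of L06040_s_at all lay under the added constant, it too passed the filter through WKY alone, and with 4 times the constant its change was -1.39.

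In the class II antigen gene RT1-Bb, X56596_at was at -2.03 ± 0.24 (log2 change ± SE) and M36151cds_s_at at -0.26 ± 0.24. The differences between probe sets of these genes were not tested. Probe sequences were not used here, so which part of each transcript these probe sets read was not determined.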
